A study of Bos taurus with 10 samples.

Results

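The genes described here build and run the mitotic spindle, and their level in a tissue depends in part on how many of its cells are dividing. They were chosen as 40 named genes of mitosis and the spindle. A gene was taken where a probeset of the array carried its symbol and no other, and among several such probesets of a gene the one brightest on average was kept. This gave 35 of the 40 genes, among 18010 genes measured that way. CCNB2, MAD2L1 and NUSAP1 lie only on probesets that also name other loci, and TTK and TOP2A are on no probeset of the annotation used, so these 5 genes were not analysed here.

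The samples were corpora lutea of cattle (Bos taurus), the progesterone-secreting glands that form in the ovary after ovulation, taken at day 7 of the cycle. The cows had been supplemented with selenium in different forms, which the labels name only as MIX (5 samples, numbered 1, 8, 9, 10 and 11) and ISe (5 samples, numbered 2, 3, 5, 6 and 7). The samples of both groups were whole luteal tissue, 1 array was run for each sample, and no group without supplement was analysed here. Nothing in the labels states that the samples are of separate cows, and the p-values cover only how these 10 samples vary.

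Cyclins A and B switch on the kinase CDK1, which drives the cell into mitosis. Kinetochores then attach the chromosomes to spindle microtubules, the spindle checkpoint delays separation until all are attached, and the anaphase-promoting complex ends mitosis by marking cyclin B and securin for destruction. In most dividing cells the transcripts of these genes build up together late in the cycle and are low in resting cells. The corpus luteum grows fast in the days after ovulation, and much of the division in it is that of endothelial cells.

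Values are log2 signals, so a difference of 1 is a doubling, and they do not compare the level of 1 gene with another's. The array medians lay between 5.99 and 6.04, and the mean level of the 35 genes between 5.15 (PTTG1) and 8.52 (CKAP2). MIX 8 stood apart from the other arrays over all genes, at 32.8 on the first principal component against -9.5 to 1.3, and MIX 1 stood apart on the second at -26.6 against -6.1 to 11.8. The group differences of single genes are therefore given with all arrays and without MIX 8, except for a second probeset of PTTG1. The luteal enzyme CYP11A1 lay between 12.94 and 13.01 in MIX and between 12.95 and 13.06 in ISe, so the tissue carried the marker of its label on all 10 arrays. In pieces of whole tissue, fewer dividing cells and less RNA of these genes per dividing cell cannot be told apart. MIX 8 also had the lowest mean correlation with the other arrays, 0.987 against 0.9886 to 0.9913. Its array quality weight in limma was the lowest as well, 0.498 against 0.680 to 1.537. The part of RNA or array quality in the values of MIX 8 was not tested.

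Mitosis and spindle genes were low in a single corpus luteum, MIX 8, and the other 4 MIX samples all lay within the range of the ISe samples for 22 of the 35 genes, where 23.1% of all probesets tested did so. MIX 8 was the lowest of the 10 arrays for 31 of the 35 genes, where 15.0% of all 19145 probesets had it lowest. It lay at least 0.5 log2 below the median of the other 9 arrays for 31 genes, against 3.19% of all probesets. The median distance was -0.78 log2, or 0.581 of the level in the other samples, and it reached -1.71 for CENPA, the histone variant that marks the centromere. Over the same probesets the median distance of MIX 8 was 0.0. Of the 10586 probesets with a mean level in the range of these genes, 3.84% lay that far below in MIX 8. MIX 8 was singled out by its values, so these counts are a description and carry no p-value.

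**Figure D1:**
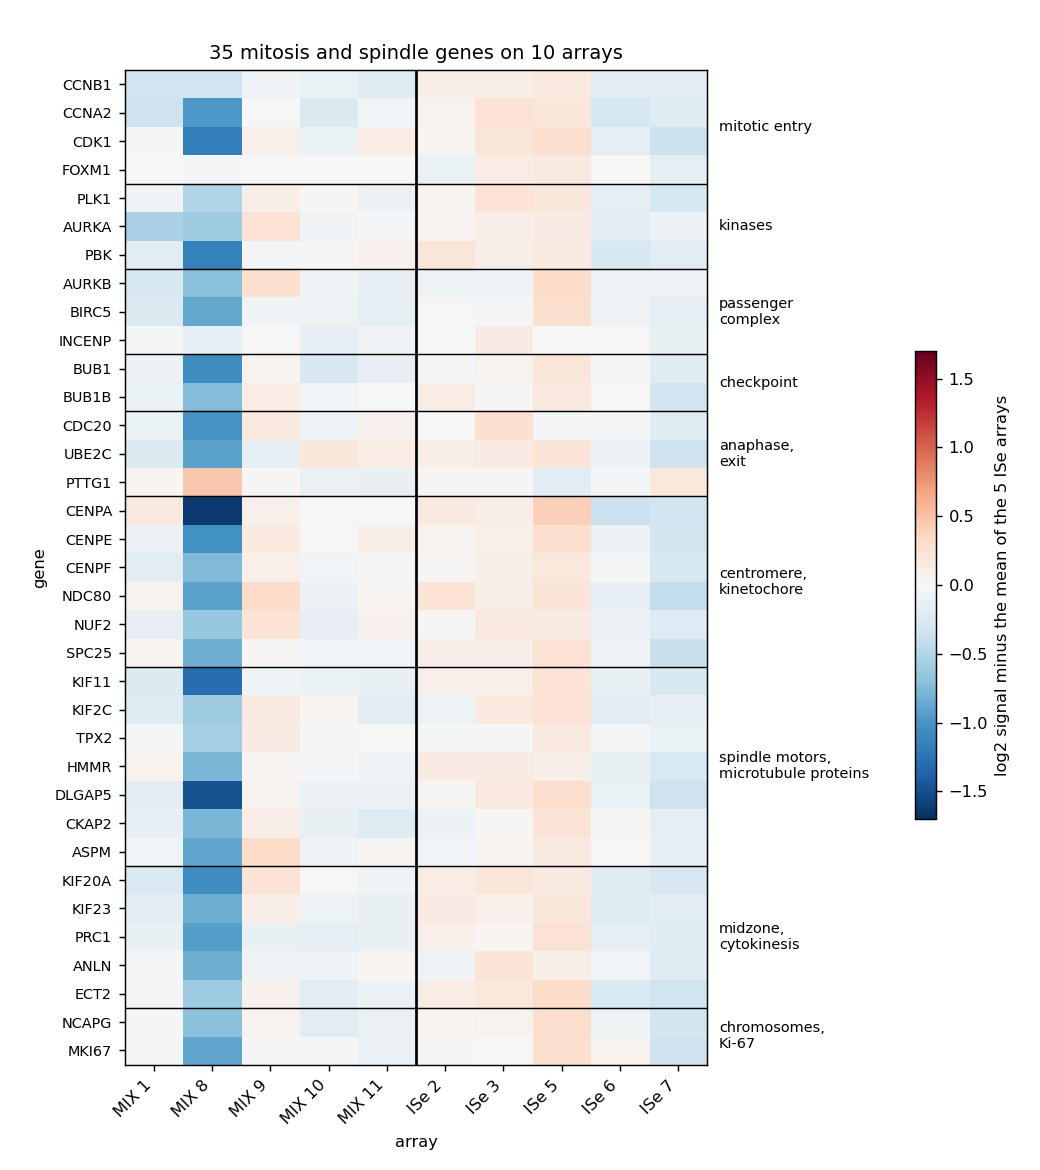
Colour shows the log2 signal of each of 35 genes (rows, grouped by role) on each array (columns, 5 MIX left and 5 ISe right) minus the mean of the 5 ISe arrays. The MIX 8 column is blue in nearly every row, with the deepest colour at CENPA, while PTTG1 is red there and FOXM1 and INCENP are nearly white.

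**Figure D2:**
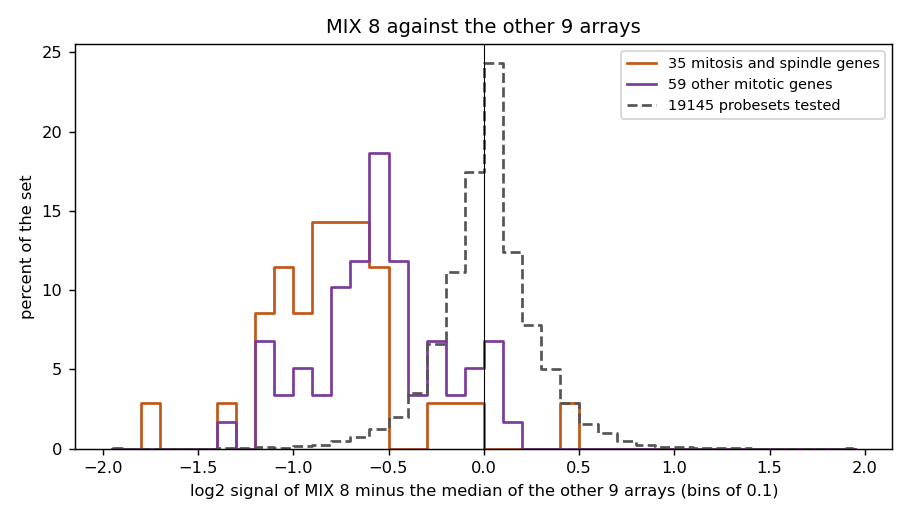
The curves give the percent of each gene set (vertical axis) at each distance of MIX 8 from the median of the other 9 arrays (horizontal axis, log2, bins of 0.1). Of the 35 mitosis and spindle genes 31 lie at or below -0.5, and the 19145 probesets tested centre on 0.0.

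Between the groups, no gene differed past the threshold. Of the 35 genes, 34 had a lower mean in MIX, where 49.6% of all probesets did, with a median log2 difference of -0.191 (MIX minus ISe) against 0.0011 over all probesets. Without MIX 8, 25 genes had a lower mean in MIX, where 50.3% of all probesets did, and the median was -0.036. A linear model with moderated variances (limma) called 0 of the 35 genes at an adjusted p under 0.05, as it did 0.0% of all probesets, and the smallest adjusted p among them was 0.941. At an unadjusted p under 0.05 there was 1 gene, CCNB1, lower in MIX, where 2.12% of all probesets passed in that direction. Without MIX 8 there were 0 genes at that limit in limma, where 2.72% of all probesets passed as lower in MIX, 0 genes passed after adjustment, where 0.00522% of all probesets did, and the smallest unadjusted p was 0.0843. No gene had every MIX sample below every ISe sample, where 0.277% of all probesets did.

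The intervals show how much the data leave room for. With all 10 arrays the 95% intervals of the fold change, MIX over ISe, reached from 0.507 (CENPA) to 1.35 (CENPA), and for 3 of the 35 genes they lay inside 0.8 to 1.25. Without MIX 8 they reached from 0.732 (CCNA2) to 1.32 (CENPA), and for 23 genes they lay inside those bounds. The spread moved in the same way. The median SD of the genes was 0.36 in the 5 MIX samples and 0.193 in the ISe samples, with the MIX SD larger for 31 of 35 genes. In the 4 MIX samples without MIX 8 the median SD was 0.111, and the MIX SD was larger than that of ISe for 4 genes. Over all probesets the median SD was 0.155 in MIX, 0.137 in MIX without MIX 8 and 0.125 in ISe. The shares of all probesets with a larger MIX SD, or with intervals inside those bounds, were not counted.

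**Figure D3:**
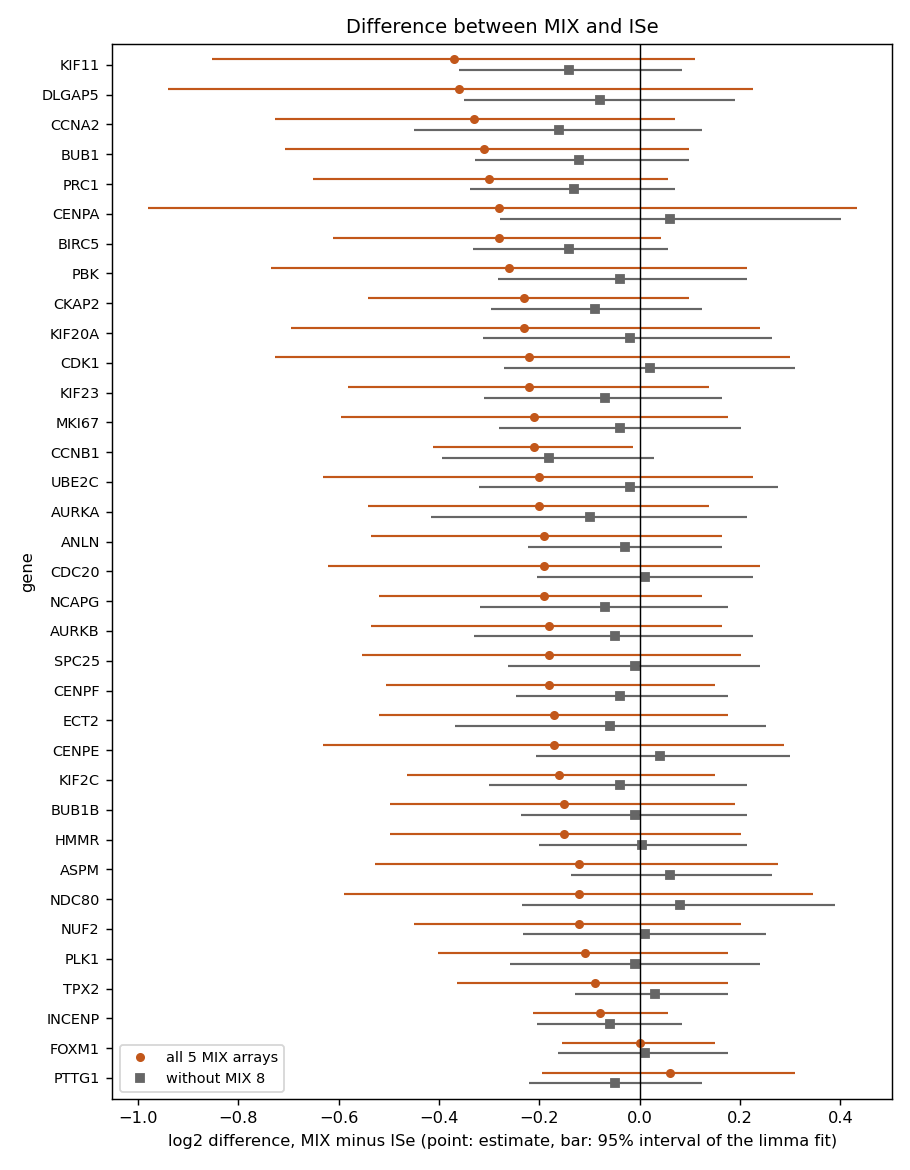
Each gene (vertical axis) has its log2 difference, MIX minus ISe (horizontal axis), with the 95% interval of the limma fit, from all 5 MIX arrays (circles) and without MIX 8 (squares), against 5 ISe arrays. With all arrays the interval of CCNB1 alone leaves out 0, and without MIX 8 all 35 intervals include 0 and 32 are shorter.

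Among the genes of mitotic entry, cyclin B1 gave the smallest p of the 35 genes, and its group difference changed little when MIX 8 was left out. CCNB1, the cyclin whose binding switches CDK1 on at the start of mitosis, was at 7.18, 7.18, 7.45, 7.40 and 7.30 in MIX 1, 8, 9, 10 and 11, against 7.61, 7.61, 7.68, 7.34 and 7.33 in ISe 2, 3, 5, 6 and 7. The ISe samples fell into a higher 3 and a lower 2, and MIX 9 and MIX 10 lay above the lower ones, so the groups overlapped. The log2 difference was -0.21 ± 0.09 (SE), a fold of 0.863 with a 95% interval of 0.752 to 0.991 (limma, unadjusted p = 0.0385, adjusted p = 0.941). Without MIX 8 it was -0.18 ± 0.09, with an interval of the fold from 0.761 to 1.02.

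CCNA2, the cyclin of S phase and early mitosis, was at 7.91, 7.28, 8.26, 8.01 and 8.21 in MIX 1, 8, 9, 10 and 11, against 8.32, 8.51, 8.46, 7.96 and 8.06 in ISe 2, 3, 5, 6 and 7. MIX 8 lay 0.63 below the next array, and the highest 3 values were all of ISe. The log2 difference was -0.33 ± 0.18 (limma adjusted p = 0.941), and -0.16 ± 0.13 without MIX 8. CDK1, the kinase itself, was at 7.15, 6.02, 7.27, 7.07 and 7.30 in the same order of MIX samples, against 7.21, 7.38, 7.47, 7.02 and 6.81 in ISe. Here the other 4 MIX samples lay inside the ISe range, and the log2 difference was -0.22 ± 0.23 with all arrays and 0.02 ± 0.13 without MIX 8. FOXM1, the transcription factor that drives many of these genes in late cycle, was among the flattest, at 6.39, 6.35, 6.38, 6.39 and 6.39 in MIX and 6.27, 6.51, 6.53, 6.39 and 6.21 in ISe. MIX 8 lay at -0.04 log2 from the median of the other arrays for it.

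**Figure D4:**
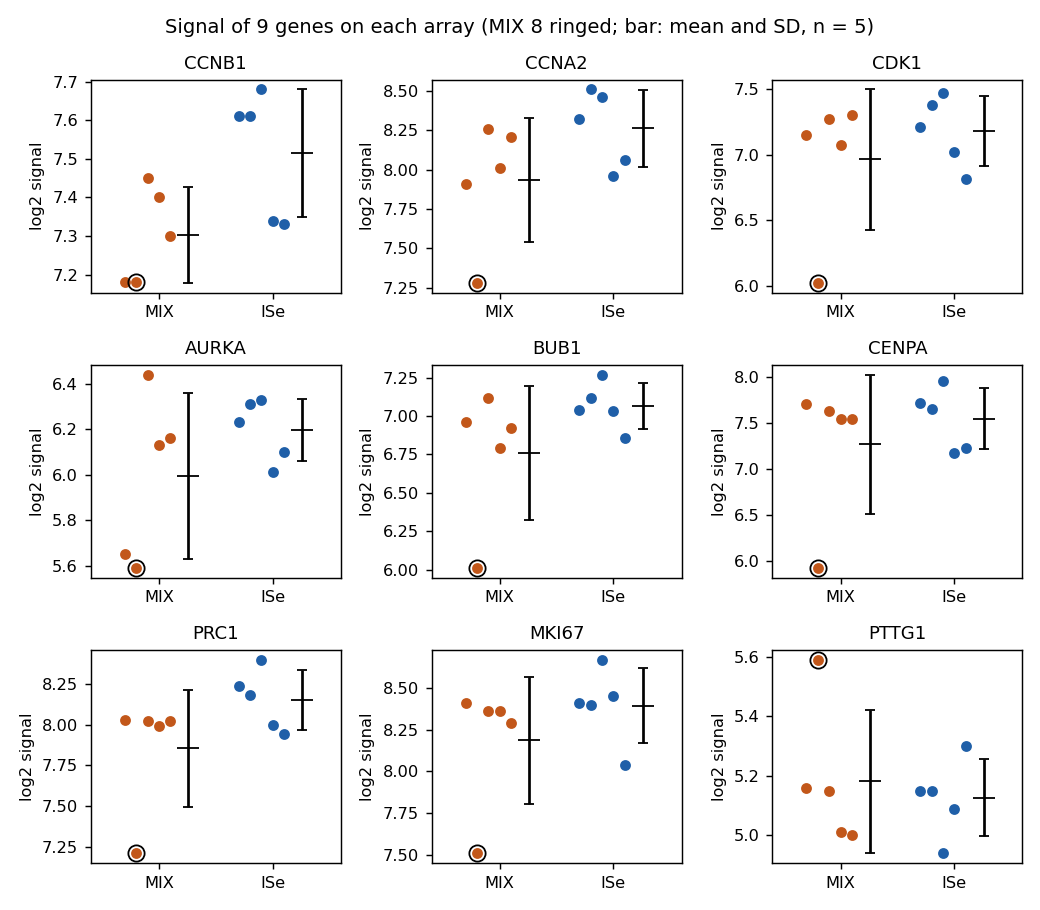
Points are the log2 signal (vertical axis) of 9 genes in each of 5 MIX and 5 ISe samples, with MIX 8 ringed and bars for the mean and SD of each group (n = 5). MIX 8 lies below all other samples for CCNA2, CDK1, AURKA, BUB1, CENPA, PRC1 and MKI67, level with MIX 1 for CCNB1, and above all others for PTTG1.

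The mitotic kinases PLK1, AURKA and PBK all had a lower mean in MIX, but little of this was left without MIX 8 for PLK1 and PBK. The log2 difference of PLK1 was -0.11 ± 0.13 with all arrays and -0.01 ± 0.11 without MIX 8. That of PBK was -0.26 ± 0.22 and -0.04 ± 0.11. Each of the kinases changed sign when MIX 1 and MIX 8 were both left out, an alternative added after seeing the data. AURKA, the kinase of the spindle poles, was at 5.65, 5.59, 6.44, 6.13 and 6.16 in MIX 1, 8, 9, 10 and 11, against 6.23, 6.31, 6.33, 6.01 and 6.10 in ISe 2, 3, 5, 6 and 7. MIX 1 and MIX 8 were both low, 0.07 apart, and MIX 9 was the highest of all. The log2 difference was -0.20 ± 0.15, and -0.10 ± 0.14 without MIX 8 (SE of the limma fit). PBK, a kinase active in mitotic cells, was at 5.66 in MIX 8 and at 6.54 or more in every other sample. PLK1, which acts at the centrosomes and kinetochores, was at 7.33 in MIX 8, and its next lowest sample was ISe 7 at 7.54.

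In the chromosomal passenger complex, which corrects faulty attachments, the kinase and survivin lay far lower in MIX 8 than in the other samples, and the scaffold lay little lower. BIRC5, which encodes survivin, was at 6.67, 6.04, 6.85, 6.82 and 6.76 in MIX 1, 8, 9, 10 and 11, against 6.91, 6.89, 7.18, 6.82 and 6.75 in ISe 2, 3, 5, 6 and 7. MIX 8 was 0.63 below the next sample, and the other 4 MIX samples lay below the median ISe sample at 6.89. The difference was -0.28 ± 0.15 log2 (limma unadjusted p = 0.084, adjusted p = 0.941), and -0.14 ± 0.09 without MIX 8. AURKB, the kinase of the complex, was at 6.49 in MIX 8, and its highest samples were ISe 5 at 7.52 and MIX 9 at 7.49. INCENP, the scaffold that holds the complex together, varied little, with 6.45 in both MIX 8 and MIX 10 and 6.74 in ISe 3 as its extremes, and MIX 8 was at -0.13 log2 from the median of the others.

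Both measured genes of the spindle checkpoint had MIX 8 as their lowest sample. BUB1, a kinetochore kinase of the checkpoint, was at 6.96, 6.01, 7.12, 6.79 and 6.92 in MIX 1, 8, 9, 10 and 11, against 7.04, 7.12, 7.27, 7.03 and 6.86 in ISe 2, 3, 5, 6 and 7. MIX 8 had 0.494 of the median level of the other 9. The log2 difference was -0.31 ± 0.18, and -0.12 ± 0.09 without MIX 8 (limma adjusted p = 0.941 and 0.9). BUB1B, whose product BubR1 holds back the anaphase-promoting complex, was at 6.22 in MIX 8, and ISe 7 came next at 6.63.

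Among the genes of anaphase and mitotic exit, CDC20 and UBE2C were low in MIX 8, and PTTG1 was high there on 1 of its 2 probesets. CDC20, the activator of the anaphase-promoting complex, was at 6.92, 6.03, 7.20, 6.96 and 7.10 in MIX 1, 8, 9, 10 and 11, against 7.03, 7.30, 7.00, 7.00 and 6.83 in ISe 2, 3, 5, 6 and 7. UBE2C, the enzyme that supplies ubiquitin to the complex, was at 6.84 in MIX 8, and its other samples lay between 7.40 and 7.98. Both thus had MIX 8 as their lowest sample. PTTG1, which encodes securin, the protein that restrains separase, was at 5.16, 5.59, 5.15, 5.01 and 5.00 in MIX, against 5.15, 5.15, 4.94, 5.09 and 5.30 in ISe, so that MIX 8 was its highest sample. It was the one gene of the 35 with a higher mean in MIX (0.06 ± 0.11 log2, and -0.05 ± 0.08 without MIX 8). The signal of PTTG1 lay below the median of every array. Its second probeset lay lower still, between 3.25 and 3.99 in MIX and between 3.41 and 3.86 in ISe. There MIX 8 was at 3.71, inside the range of the other samples, and MIX 11 was the highest at 3.99. This second probeset had a log2 difference of -0.08 ± 0.15 with all arrays, so the 2 probesets disagreed in direction.

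All 6 genes of the centromere and kinetochore had a lower mean in MIX, and without MIX 8 only 2 of them, CENPF and SPC25, still did. CENPA was at 7.71, 5.92, 7.63, 7.55 and 7.55 in MIX 1, 8, 9, 10 and 11, against 7.72, 7.66, 7.96, 7.18 and 7.23 in ISe 2, 3, 5, 6 and 7. The other 4 MIX samples were close together in the middle of the ISe range, while MIX 8 had 0.306 of the median level of the other 9 and lay 1.25 below the next sample. The log2 difference was -0.28 ± 0.32 with all arrays and 0.06 ± 0.15 without MIX 8 (SE of the limma fit).

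CENPE, a kinesin that carries chromosomes to the spindle equator, and CENPF, a large protein of the outer kinetochore, were at 6.30 and 7.62 in MIX 8. In both, ISe 7 was the next lowest sample, at 7.02 for CENPE and 8.10 for CENPF. NDC80, NUF2 and SPC25 encode 3 subunits of the complex that grips microtubules. In MIX 8 they lay at -0.98, -0.67 and -0.84 log2 from the median of the other samples. ISe 7 was again next in each, and without MIX 8 the log2 differences of these 3 genes ran from -0.01 (SPC25) to 0.08 (NDC80).

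All 7 measured spindle motors and microtubule proteins had a lower mean in MIX, and none passed the threshold. KIF11, the kinesin that pushes the spindle poles apart, was at 8.17, 7.11, 8.33, 8.30 and 8.28 in MIX 1, 8, 9, 10 and 11, against 8.50, 8.49, 8.64, 8.28 and 8.13 in ISe 2, 3, 5, 6 and 7. Its log2 difference of -0.37 ± 0.22 was the largest of the 35, and it was -0.14 ± 0.10 without MIX 8. CKAP2, a microtubule-stabilising protein, was at 8.50, 7.86, 8.75, 8.51 and 8.42 in MIX, against 8.54, 8.65, 8.86, 8.65 and 8.48 in ISe. The difference was -0.23 ± 0.14 log2 (limma unadjusted p = 0.147, adjusted p = 0.941), and -0.09 ± 0.09 without MIX 8. Both genes overlapped between the groups.

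DLGAP5, which stabilises the fibres that reach the kinetochores, was at 6.00 in MIX 8 and between 7.13 and 7.77 in the other 9 samples, a distance of -1.39 from their median. HMMR, TPX2 and ASPM, which act at the spindle poles or in building microtubules around the chromosomes, were at -0.82, -0.56 and -0.88 log2 from the median of the other samples in MIX 8. KIF2C, a kinesin that shortens microtubules at the centromere, was at 5.53 in MIX 8, and MIX 1 was next at 5.92. The group as a whole had a median log2 difference of -0.16 over 7 genes, and -0.04 without MIX 8, when 4 of the 7 still had a lower mean in MIX.

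The 5 genes of the spindle midzone and of cytokinesis all had a lower mean in MIX, and without MIX 8 their log2 differences ran from -0.13 to -0.02. PRC1, which bundles the midzone microtubules, was at 8.03, 7.21, 8.02, 7.99 and 8.02 in MIX 1, 8, 9, 10 and 11, against 8.24, 8.18, 8.40, 8.00 and 7.94 in ISe 2, 3, 5, 6 and 7. The 4 other MIX samples lay close together, below 3 of the ISe samples and near the remaining 2. The difference was -0.30 ± 0.16 log2 (limma unadjusted p = 0.0945, adjusted p = 0.941), and -0.13 ± 0.09 without MIX 8. KIF23, a kinesin of the central spindle, had a difference of -0.22 ± 0.16 log2 with all arrays and -0.07 ± 0.11 without MIX 8. KIF20A, a motor of the same region, ANLN, an actin-binding scaffold of the cleavage furrow, and ECT2, which activates the small GTPase of the contractile ring, were at 7.25, 7.41 and 7.39 in MIX 8, and for each the next lowest sample was ISe 7.

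Ki-67, the usual marker of dividing cells, was likewise low in MIX 8. MKI67, which encodes Ki-67, a surface protein of mitotic chromosomes, was at 8.41, 7.51, 8.36, 8.36 and 8.29 in MIX 1, 8, 9, 10 and 11, against 8.41, 8.40, 8.67, 8.45 and 8.04 in ISe 2, 3, 5, 6 and 7. MIX 8 was 0.538 of the median level of the other 9, and the 4 other MIX samples lay well inside the ISe range. The log2 difference was -0.21 ± 0.17, and -0.04 ± 0.11 without MIX 8 (limma adjusted p = 0.941 and 0.975). NCAPG, a subunit of the condensin that compacts chromosomes, was at 7.21 in MIX 8, with ISe 7 next at 7.59, and had a difference of -0.19 ± 0.15 log2, and -0.07 ± 0.11 without MIX 8.

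Beyond MIX 8, the samples kept a common order that ran through both groups. ISe 5 was the highest sample for 22 of the 35 genes, ISe 3 for 6 and MIX 9 for 5. Over all probesets these samples were the highest for 8.23%, 9.0% and 10.2%. Of the 9 samples without MIX 8, ISe 7 was the lowest for 22 genes and MIX 1 for 6. The matching shares of all probesets over 9 samples were not counted. The mean deviation over the 35 genes, each taken from the gene's own mean, was -0.022, -0.698, 0.171, 0.022 and 0.048 in MIX 1, 8, 9, 10 and 11, against 0.141, 0.201, 0.287, -0.017 and -0.135 in ISe 2, 3, 5, 6 and 7. The highest and the lowest of the 9 samples were thus both of the ISe group, and the 4 MIX samples lay between them. Over these 9 arrays the Pearson correlation of a gene with the mean of the others had a median of 0.813. It ran from -0.546 for PTTG1 to 0.986 for DLGAP5, and 21 of the 35 lay above 0.8. These correlations describe 9 arrays that share a platform and a normalisation, and carry no test.

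A list of 60 other genes of mitosis had MIX 8 as its lowest sample too, with a mean deviation of -0.52, and ISe 5 as the highest at 0.21. This list was chosen with earlier results of these data known and is read on the same arrays, so it is no independent check. Of the 59 measured, 54 had a lower mean in MIX, with a median of -0.138 log2, and 40 did so without MIX 8, with a median of -0.04. At an unadjusted p under 0.05 limma had 2 of them, both lower in MIX, where 2.12% of all probesets passed in that direction, and 0 passed after adjustment. Without MIX 8 it had 0 at that limit, where 2.72% of all probesets passed as lower in MIX. SPC24, the partner of SPC25 in the kinetochore, was at 7.41, 6.70, 7.57, 7.84 and 7.13 in MIX 1, 8, 9, 10 and 11, against 7.88, 8.04, 8.13, 7.60 and 7.56 in ISe 2, 3, 5, 6 and 7. MIX 8 and MIX 11 were the lowest, and MIX 9 and MIX 10 lay in the ISe range. The difference was -0.52 ± 0.20 log2 (limma unadjusted p = 0.025, adjusted p = 0.941), and -0.36 ± 0.16 without MIX 8 (unadjusted p = 0.052 in limma).

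CDCA8, which encodes borealin of the chromosomal passenger complex, had a difference of -0.32 ± 0.14 log2 (limma unadjusted p = 0.0481, adjusted p = 0.941), and -0.21 ± 0.12 without MIX 8 (unadjusted p = 0.114). Next came KIF22, a kinesin that binds chromosome arms, at -0.17 ± 0.09, and -0.16 ± 0.09 without MIX 8. MIX 8 was the lowest sample for 49 of the 59 genes and at least 0.5 log2 below the median of the other 9 for 36.

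The genes of the G1/S step and of DNA replication, which act before mitosis, were less low in MIX 8. Of the 41 measured, 23 had MIX 8 as the lowest sample, and 6 lay at least 0.5 log2 below, with a median distance of -0.29. The list had a median log2 difference of -0.082, with 38 of 41 lower in MIX, and -0.036 with 27 of 41 without MIX 8. GINS1, of the replicative helicase, had a difference of -0.17 ± 0.08, CDT1, which licenses origins, -0.16 ± 0.09, and MCM2, of the helicase core, -0.17 ± 0.10 (log2 ± SE). Without MIX 8 these were -0.10 ± 0.07 for GINS1, -0.19 ± 0.09 for CDT1 and -0.17 ± 0.11 for MCM2. In limma 0 of the 41 were at an unadjusted p under 0.05 with all arrays, where 2.12% of all probesets passed as lower and 2.67% as higher in MIX, and 0 were without MIX 8.

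A list of CDK inhibitors and quiescence complex genes, not all of which hold cells out of the cycle, was split between the directions. Of 19 CDK inhibitors and members of the quiescence complex, 8 had a lower mean in MIX and 11 a higher one, with a median of 0.009 log2 and 0.013 without MIX 8. The smallest p-values were those of MYBL2 (-0.16 ± 0.07), TFDP1 (-0.14 ± 0.07) and CDKN2D (-0.17 ± 0.10, log2 ± SE). Without MIX 8 they were at -0.11 ± 0.07 for MYBL2, -0.16 ± 0.07 for TFDP1 and -0.09 ± 0.08 for CDKN2D. MYBL2 is itself an activator of mitotic genes, TFDP1 a partner of the E2F factors, and CDKN2D an inhibitor of the G1 kinases. At an unadjusted p under 0.05 limma had 0 of the 19 with all arrays, where 2.12% of all probesets passed as lower in MIX, and 1, TFDP1, without MIX 8, where 2.72% did. MIX 8 was the lowest sample of the list mean here too, at -0.11 against -0.06 to 0.11 in the others. The median distance of MIX 8 from the other samples was only -0.01 log2 over this list. It was at least 0.5 log2 below them for 1 gene, CDKN3, at -0.80. CDKN1A, the inhibitor p21, was at 7.06 in MIX 8, between 7.29 and 7.61 in the other MIX samples, and between 7.27 and 7.97 in ISe.

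The 16 subunits and regulators of the anaphase-promoting complex had a median of -0.029 log2, with 10 lower in MIX, and -0.007 with 9 lower without MIX 8. ANAPC4 was at -0.15 ± 0.06 (limma unadjusted p = 0.0411, adjusted p = 0.941), the one of the 16 at an unadjusted p under 0.05, where 2.12% of all probesets passed as lower in MIX. Without MIX 8 ANAPC4 was at -0.12 ± 0.06 (unadjusted p = 0.0902), and 0 of the 16 were at that limit in limma. FBXO5, an inhibitor of the complex, was at -0.22 ± 0.16 and ANAPC13 at -0.07 ± 0.05 (log2 ± SE). Without MIX 8 FBXO5 was at -0.05 ± 0.07 and ANAPC13 at -0.08 ± 0.05. MIX 8 was at least 0.5 log2 below the other samples for 1 of the 16, FBXO5, at 6.26 against 6.90 to 7.21 elsewhere, and its list mean of -0.13 was the lowest of the 10 samples.

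The other 17975 genes were ranked by their correlation with the mean of the 35 genes. Over the 9 arrays without MIX 8, PSMA6, a proteasome subunit, led with r = 0.96 (rho = 0.979), then CDKN3, a phosphatase that acts on CDK1 and CDK2 (r = 0.959), PCLAF, which binds the replication clamp (r = 0.957), MELK, TMPO, NEK2, SMC2 and SHCBP1 (r = 0.941). Without ISe 5 and ISe 7, the samples farthest out, r lay between 0.881 (SMC2) and 0.946 (CDKN3) for these 8 genes. They were taken as the highest of all genes, so no p is given. In MIX 8 itself PSMA6 lay at only -0.07 log2 from the median of the other samples, and the rest of the 8 between -1.16 (SHCBP1) and -0.41 (MELK). Over all 10 arrays the first 8 were SHCBP1, TMPO, MYBL1, ARHGAP11A, CKAP2L, KIF18A, CIT and KNSTRN, with r from 0.972 to 0.988, and from 0.797 (KNSTRN) to 0.95 (TMPO) without MIX 8 and ISe 5, the samples farthest out.

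Of the 59 other mitotic genes, 16 (27.1%) were among the first 100 over the 9 arrays, as were 6 of the 41 replication genes (14.6%), where 100 genes make up 0.556% of all those ranked. None of the 90 measured markers in 10 lists of cell types was among the first 100, with or without MIX 8. At a share of 0.556% few or none of them would be, so this count says little about the cell types.

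For none of the 10 lists of cell type markers was MIX 8 the lowest sample. In MIX 8 the mean deviation of endothelial markers was -0.03, against -0.02 to 0.27 in the other MIX samples and -0.22 to 0.16 in ISe. That of luteal steroidogenic markers was -0.08 in MIX 8, against -0.10 to 0.07 in the other MIX samples and -0.04 to 0.14 in ISe. All 14 endothelial markers and 11 of the 12 T and NK cell markers had a higher mean in MIX. Over all probesets 49.6% had a lower mean in MIX. At an unadjusted p under 0.05 limma had 1 and 3 of these markers, all higher in MIX. Over all probesets 2.67% passed in that direction. The mean signal of 9 of the 12 T and NK cell markers lay below the array median. The macrophage markers were higher in MIX too, and the other cell type lists held genes in both directions. All 11 macrophage markers had a higher mean in MIX and an unadjusted p under 0.05 in limma, where 2.67% of all probesets passed in that direction, and 0 passed after adjustment. Their median log2 difference was 0.519 with all arrays, against 0.0011 over all probesets. Without MIX 8 it was 0.482, against -0.0008 over all probesets, and again 0 passed after adjustment. Their mean deviation lay between 0.08 and 0.38 in MIX and between -0.53 and 0.03 in ISe.

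MIX 8 was the highest sample of the macrophage list, at 0.38. For T and NK cell markers it was at 0.28, where the MIX samples ran from -0.10 to 0.36 and the ISe samples from -0.23 to 0.07. Markers of fibroblasts, pericytes and smooth muscle, B cells, follicular granulosa cells, erythroid and epithelial cells were at -0.13, 0.15, 0.11, -0.06, 0.09 and -0.10 in MIX 8, each inside the range of the other 9 samples. The part of these cell types in the level of the mitosis genes was not tested.

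**Figure D5:**
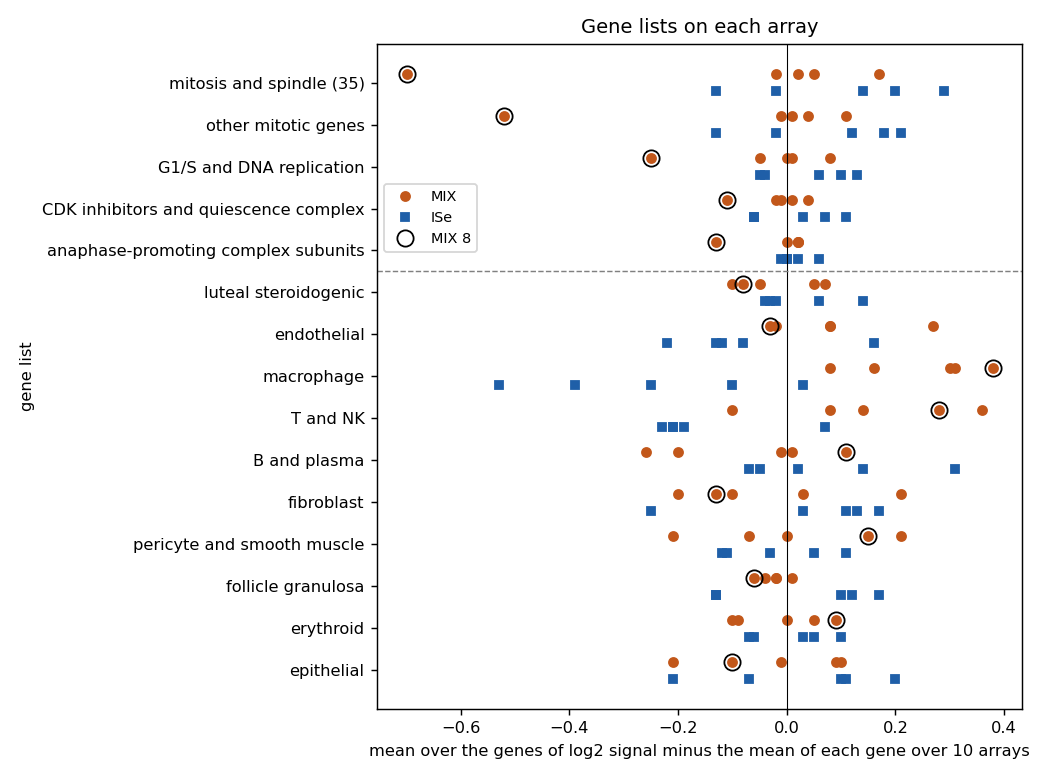
Each point is 1 array, placed by the mean over a gene list (rows, cell cycle lists above the dashed line and cell types below) of log2 signal minus each gene's mean over 10 arrays (horizontal axis). MIX arrays are circles with MIX 8 ringed, and ISe arrays are squares. MIX 8 lies at -0.70 for the mitosis and spindle genes, -0.52 for other mitotic genes and -0.25 for replication genes, and at 0.38, the highest array, for macrophage markers.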

How the data were processed

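The authors' deposited table holds log2 signals per probeset of single-colour whole-transcript arrays (biotin-labelled total RNA, per the labels' protocols). The submitters' processing notes list GCOS 1.2 and Partek without stating a role for either, and how background was corrected and arrays normalised is not given in the sources used here. Array medians and quartiles were nearly equal, so values were used as deposited. MIX 8 had the highest lower quartile, 4.656 against 4.517 to 4.599, and the lowest upper quartile, 7.592 against 7.621 to 7.668. The number of arrays limits the precision.

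Of 26773 probesets, the platform annotation gives 18457 a single symbol, 688 several and 7628 none. The 19145 with a symbol were fitted with lmFit and eBayes (limma 3.58.1, R 4.3.3, two-sided, Benjamini-Hochberg over all 19145, threshold 0.05), after a test on simulated data. Standard errors and 95% intervals come from that fit.

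The genes described and the 14 other gene lists were chosen with earlier results of these data known. The naming rule took all 35 measured genes, with fuller statistics for up to 2 per role by smallest p and, of each other cell cycle list, the 3 with the smallest p. CDK1, FOXM1, PTTG1, CENPA, DLGAP5 and CDKN1A were given more room after their values were seen. List means are averages of each gene's deviation from its own mean over the 10 arrays.

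Alternatives were quantile normalisation, median centring, no dim probesets, all probesets, trended or no moderation, array quality weights, averaged probesets and leaving out each array. Leaving out MIX 1 and MIX 8 together was added after the data were examined. Motifs and protein sequences of these genes were not analysed here. Plots were made in Python 3.11.15 (matplotlib 3.10.9).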

Additional observations from a re-analysis of the deposited data

Results flagged for a closer look

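In groups of 5 samples, a sample stood far from the others, by the gap to its neighbour as a share of the group's range, in 16 of the 35 genes for MIX and in 1 for ISe. Chance flags about 1 in 20 groups at each test, and over all probesets 9.92% had such a sample in MIX and 11.4% in ISe. In 15 genes it was MIX 8 as the lowest. Its log2 signal was 6.02 for CDK1, 5.66 for PBK, 6.04 for BIRC5, 6.22 for BUB1B, 6.03 for CDC20, 5.92 for CENPA, 6.30 for CENPE and 5.49 for SPC25. It was 7.11 for KIF11, 7.53 for TPX2, 6.59 for HMMR, 6.00 for DLGAP5, 7.21 for PRC1, 7.41 for ANLN and 7.51 for MKI67. On the kept probeset of PTTG1, MIX 8 was the sample far above the others, at 5.59. For AURKB in ISe, ISe 5 was far above the others, at 7.52. These genes are measured on the same arrays, so the 15 are not independent of each other.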

How the results depend on the processing

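No paired analysis was possible because the groups share no replicate number. None of the 35 genes passed an adjusted p under 0.05 under any alternative, and their smallest adjusted p was 0.883 (without MIX 9). The count of 1 gene at an unadjusted p under 0.05, CCNB1, was 0 without moderation, with array quality weights and without MIX 1 and MIX 8 together, and ran from 0 to 3 (without MIX 9) when 1 array was left out. The 34 genes lower in MIX ran from 25 (without MIX 8) to 34 when 1 array was left out, and were 35 with the probesets of a gene averaged and 17 without MIX 1 and MIX 8, an alternative added after seeing the data. Their median log2 difference, -0.191, ran from -0.258 (without ISe 7) to -0.036 (without MIX 8), and was -0.104 with array quality weights and 0.002 without MIX 1 and MIX 8. With 1 array left out, 11 genes changed sign under at least 1 choice. CDK1 ran from -0.31 to 0.02, FOXM1 from -0.04 to 0.04, CDC20 from -0.28 to 0.01, PTTG1 from -0.05 to 0.10, CENPA from -0.38 to 0.06, CENPE from -0.25 to 0.04, NDC80 from -0.23 to 0.08, NUF2 from -0.21 to 0.01, TPX2 from -0.15 to 0.03, HMMR from -0.22 to 0.0046 and ASPM from -0.23 to 0.06. FOXM1 was at 0.0019 after median centring and 0.0015 with array weights, and PTTG1 at -0.00034 with array weights and -0.01 with its probesets averaged. Without MIX 1 and MIX 8 together 19 genes changed sign: CDK1 (0.04), FOXM1 (0.01), PLK1 (0.0019), AURKA (0.05), PBK (0.02), AURKB (0.02), BUB1B (0.03), CDC20 (0.05), UBE2C (0.05), PTTG1 (-0.07), CENPA (0.03), CENPE (0.09), CENPF (0.01), NDC80 (0.09), NUF2 (0.06), KIF2C (0.01), TPX2 (0.04), ASPM (0.10) and KIF20A (0.06). Why these moved was not tested beyond leaving out the arrays.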
